A study of Mus musculus with 7 samples.

Results

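The hypoxia-inducible factor (HIF) pathway was followed through 10 genes in the hearts of mice after myocardial infarction (MI). They were chosen by name, with earlier results of these data known. They stand for the subunits of HIF, the proteins that sense oxygen and remove HIF, and genes that HIF switches on: Hif1a, Epas1, Hif3a, Arnt, Vhl, Egln1, Egln3, Bnip3, Adm and Car9. All 10 were in the table of 56980 genes, and 8 of them were among the 11431 genes tested, those that reached 1 FPKM in 3 or more mice. Hif3a and Car9 lay under that limit and were not tested across the table. FPKM is the number of sequenced fragments on a gene per kilobase of its length, scaled to the size of the library.

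The animals were male wild-type C57BL/6J mice, an inbred strain, bought at the age of 8 weeks. In 3 of them the left coronary artery was ligated (MI mice), and 4 were sham-operated, with the same surgery but no ligation. Myocardial tissue was collected 4 days later and total RNA was sequenced in 7 libraries, read here as 1 per mouse. The study describes the tissue of the MI mice as ischemic. How it was dissected and whether tissue was pooled are not given in the sources used here, so p-values measure the spread between these libraries.

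Cells make the alpha subunits of HIF all the time and destroy them when oxygen is present. The prolyl hydroxylases encoded by Egln1, Egln2 and Egln3 use oxygen to hydroxylate the alpha subunit, and the product of Vhl then marks it for degradation. When oxygen falls, the alpha subunit persists, pairs with ARNT and binds short DNA motifs beside its target genes. Much of the control of the pathway therefore acts on protein, which RNA levels do not show. In the heart the pathway is known for its part in glycolysis, vessel growth and the removal of mitochondria under ischemia.

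The core motif that HIF binds is ACGTG or GCGTG. It was searched on both strands in RefSeq promoter windows of 300 bases (GRCm38.p6, 250 before to 50 after the annotated start of transcription), which were found for 9 of the 10 genes, all but Epas1. Of these, 8 held at least 1 match, against 43.8% of the 32851 windows of all 27025 genes. ACGTG or its complement stood in 5 of the 9 windows and in 19.6% of all windows, and GCGTG or its complement in 5 of the 9 and in 32.4% of all. The Vhl window held neither. A match describes the letters in the window and does not show binding. Of the 4 windows that follow, those of Egln1 and Bnip3 belong to the tested members whose MI and sham-operated mice did not overlap, that of Car9 to the member found at more than 3 fragments only in MI replicates 1 and 3, and that of Hif1a to the HIF subunit with the largest difference. The Hif1a window lies inside the gene as GENCODE M21 draws it, downstream of the first annotated start there, so it is the promoter of the RefSeq start only. Each is given 5′ to 3′ on the strand of the gene, with the matches in capitals.
Hif1a, chr12:73907617-73907916, plus strand: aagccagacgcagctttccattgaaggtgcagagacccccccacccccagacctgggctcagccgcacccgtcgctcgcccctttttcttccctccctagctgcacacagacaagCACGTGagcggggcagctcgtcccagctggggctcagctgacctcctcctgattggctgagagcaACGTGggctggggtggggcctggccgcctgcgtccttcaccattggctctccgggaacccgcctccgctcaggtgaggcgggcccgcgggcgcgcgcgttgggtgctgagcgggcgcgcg
Egln1, chr8:124949205-124949504, minus strand: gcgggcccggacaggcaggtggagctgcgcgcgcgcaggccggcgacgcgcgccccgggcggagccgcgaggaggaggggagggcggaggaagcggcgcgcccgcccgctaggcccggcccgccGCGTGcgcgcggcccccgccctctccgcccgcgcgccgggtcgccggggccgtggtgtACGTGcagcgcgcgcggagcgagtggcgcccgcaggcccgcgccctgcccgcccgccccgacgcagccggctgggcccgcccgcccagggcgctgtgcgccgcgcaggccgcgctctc
Bnip3, chr7:138909457-138909756, minus strand: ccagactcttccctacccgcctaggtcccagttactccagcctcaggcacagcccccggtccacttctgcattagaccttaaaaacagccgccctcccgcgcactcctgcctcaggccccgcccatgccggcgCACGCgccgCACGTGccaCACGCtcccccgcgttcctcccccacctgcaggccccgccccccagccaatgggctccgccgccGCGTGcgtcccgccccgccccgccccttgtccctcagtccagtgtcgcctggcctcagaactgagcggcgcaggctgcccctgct
Car9, chr4:43506776-43507075, plus strand: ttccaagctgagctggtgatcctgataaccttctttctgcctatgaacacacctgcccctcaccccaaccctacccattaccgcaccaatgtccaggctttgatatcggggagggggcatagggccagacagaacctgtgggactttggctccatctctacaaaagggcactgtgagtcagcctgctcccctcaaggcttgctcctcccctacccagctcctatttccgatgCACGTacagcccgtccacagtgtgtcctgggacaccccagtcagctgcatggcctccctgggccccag
Bnip3 had the most matches, 5, of which 2 were both strands of a single CACGTG, a palindrome that 7.15% of all windows contained. Hif1a also had a CACGTG. The match in Car9 lay at -18 to -14 from the start, on the opposite strand.

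**Figure D1:**
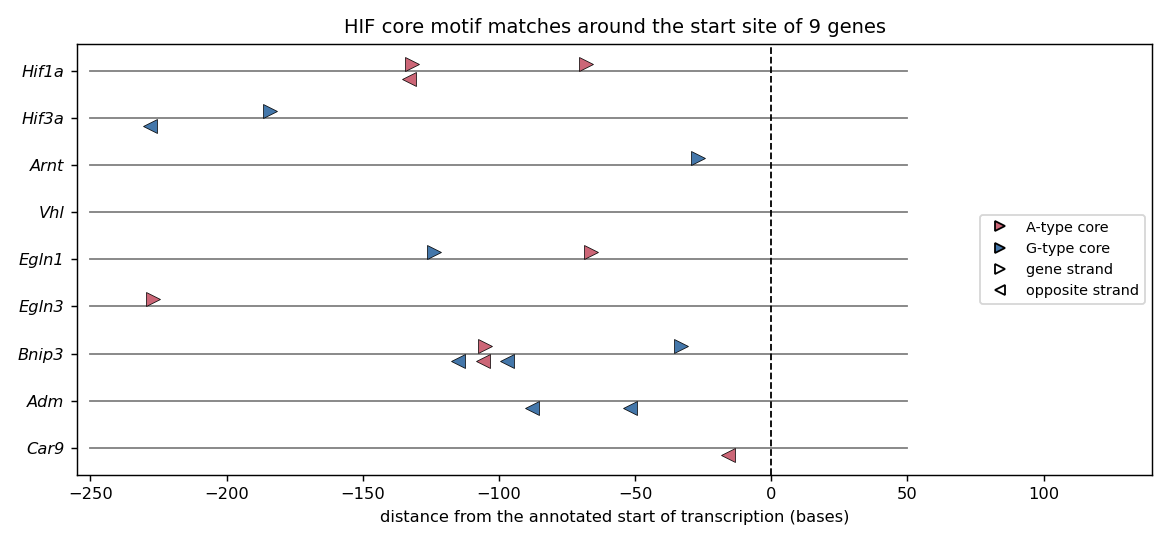
Position of the HIF core motif in the promoter windows of 9 genes; the x axis gives bases from the annotated start of transcription and each line is 1 gene. Red marks ACGTG (A-type), blue GCGTG (G-type), and arrowheads point right for the strand of the gene and left for the opposite strand; Bnip3 had 5 matches and Vhl 0.

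The 7 libraries held 19977713 to 23610870 fragments. MI replicate 2 stood apart from the other MI mice. It was close to the sham-operated mice in most measures but not in all. Its Tfrc level, 3.74 FPKM, lay between those of MI replicates 1 and 3 (3.47 and 4.56) and far below the sham range of 12.4 to 17.2. In this mouse 9 of 10 fibroblast markers were above every sham-operated mouse, among them Postn at 10.8 FPKM against 3.12 to 4.06. The same 9 were above in every MI mouse, as were 16.1% of all tested genes. No sham-operated mouse stood near MI replicates 1 and 3. A small infarct and another sampling site cannot be told apart for this library, and this bears on every MI mean that follows. Across the tested genes, which are not independent, Pearson's r with the sham-operated mice was 0.984 to 0.987 for MI replicate 2, against 0.878 to 0.906 for MI replicates 1 and 3. With MI replicates 1 and 3, MI replicate 2 had r of 0.897 and 0.920, where the sham-operated mice reached at most 0.881 and 0.906. Mitochondrial genes took 26.5% to 27.4% of the fragments of the sham-operated mice and 13.6%, 28.2% and 14.9% of those of MI replicates 1, 2 and 3. Marker genes of several cell types also set MI replicates 1 and 3 apart. The summed level of 10 cardiomyocyte markers was 15766 to 17202 FPKM in the sham-operated mice and 10470, 15624 and 11399 in MI replicates 1, 2 and 3. That of 10 fibroblast markers was 131 to 151 FPKM in the sham-operated mice and 2657, 243 and 2069 in MI replicates 1, 2 and 3, and that of 10 macrophage markers 204 to 256 FPKM in the sham-operated mice and 1332, 246 and 1140 in MI replicates 1, 2 and 3. The 10 endothelial markers summed to 168 to 192 FPKM in the sham-operated mice and 219, 161 and 238 in MI replicates 1, 2 and 3. Neutrophil markers were low, at 0.693 to 1.55 FPKM in the sham-operated mice and at most 15.4 in an MI mouse, with Retnlg and Ly6g listed at 0 in every sham-operated mouse. The 4 B cell markers summed to 0.731 to 1.03 FPKM in the sham-operated mice and 33.5, 0.600 and 5.27 in MI replicates 1, 2 and 3, and the 4 T cell markers to 0.0956 to 0.285 FPKM in the sham-operated mice and 4.04, 0.415 and 1.89 in MI replicates 1, 2 and 3. The 5 erythroid markers summed to 371 to 774 FPKM in the sham-operated mice and 2390, 591 and 1014 in MI replicates 1, 2 and 3. Without MI replicate 2 all 5 were higher at an adjusted p under 0.05 (limma), as were 57.0% of all tested genes. With all 7 mice, 0 of the 5 were higher even at an unadjusted p under 0.05. The summed level of 8 smooth muscle and pericyte markers, mostly Rgs5, was 212 to 230.0 FPKM in the sham-operated mice and 206, 216 and 206 in MI replicates 1, 2 and 3, but its members went opposite ways: in MI replicates 1 and 3 Abcc9 was at 17.7 and 19.0 FPKM against 43.0 to 47.3 in the sham-operated mice, and Pdgfrb at 24.2 and 22.3 against 10.6 to 12.6. The cardiomyocyte markers were all present in every heart. In whole tissue, fewer cells of a type and less RNA per cell cannot be told apart, and the part of cell makeup in the values that follow was not tested. Values are therefore given for each mouse, and limma fits with and without MI replicate 2. The fit without it sets MI replicates 1 and 3 alone against the 4 sham-operated mice. MI replicate 2 was singled out from these same data, so the p-values of that fit overstate the evidence and are descriptive only.

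At an adjusted p under 0.05 (limma, Benjamini-Hochberg over 11431 genes), 0 of the 8 tested members differed between MI and sham-operated mice, as did 0.0262% of all tested genes (0.0175% higher and 0.00875% lower). At an unadjusted p under 0.05, Hif1a and Bnip3 were higher and Egln1 was lower in the MI mice, 2 and 1 of 8 members, where 29.5% of all genes were higher and 9.85% lower. The groups did not overlap for Bnip3 (MI above) and Egln1 (MI below) among the 8, where 16.1% of all genes had every MI mouse above and 9.0% every MI mouse below (25.1% together). A share of 1 in 8 in each direction is near that background. Without MI replicate 2, 5 of the 8 (Hif1a, Arnt, Vhl, Bnip3 and Adm) were higher and 2 (Epas1 and Egln1) lower at an adjusted p under 0.05, against 57.0% and 14.7% of all genes (71.7% together). The log2 fold change of the median gene was itself 0.21, and 0.33 without MI replicate 2, so each fitted difference is also given relative to the median gene of its fit.

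**Figure D2:**
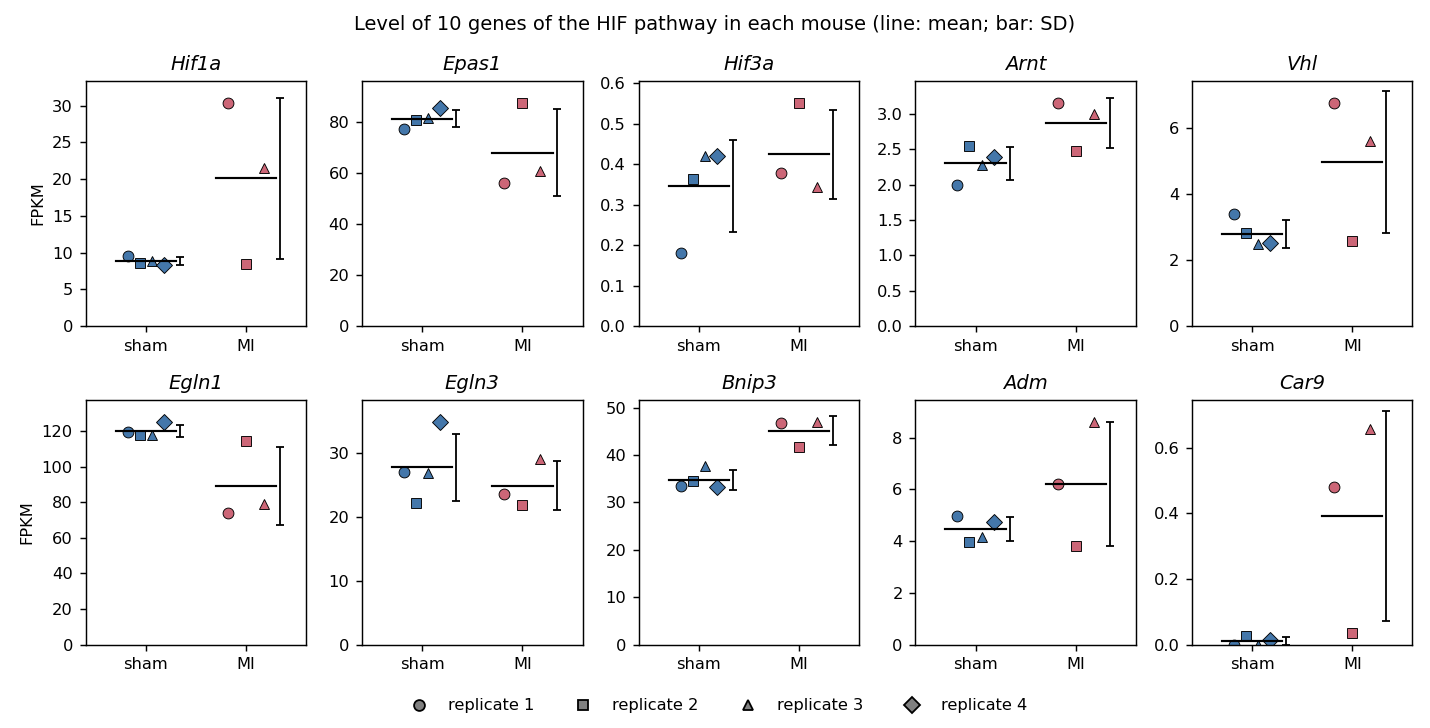
FPKM of the 10 genes in each mouse; each panel is 1 gene, the y axis starts at 0, symbols give the replicate, the line is the group mean and the bar the SD (n = 4 sham, n = 3 MI). MI replicates 1 and 3 lie above the sham range for Hif1a and Vhl and below it for Epas1 and Egln1, while MI replicate 2 (square) lies close to the sham-operated mice except for Bnip3 and Hif3a.

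Among the HIF alpha subunits, MI replicates 1 and 3 had more Hif1a and less Epas1 RNA than any sham-operated mouse. Hif1a encodes HIF-1α, the subunit present in most cells. Hif1a (ENSMUSG00000021109) lies on chromosome 12 from 73901375 to 73947530 on the plus strand (GRCm38, GENCODE M21). It stood at 9.58, 8.58, 8.91 and 8.30 FPKM in sham replicates 1 to 4 and at 30.3, 8.48 and 21.5 in MI replicates 1 to 3. MI replicates 1 and 3 were far above every sham-operated mouse, and MI replicate 2 lay inside their range. The means were 8.84 ± 0.551 (SD, n = 4) and 20.1 ± 11 (SD, n = 3), from 1153 to 1494 fragments in a sham-operated heart and 1334 to 4591 in an MI heart. The log2 fold change on log2(FPKM + 1) was 0.94 (standard error 0.36), or 0.73 relative to the median gene, with a limma p of 0.0355 and an adjusted p of 0.115. Without MI replicate 2 it was 1.43, or 1.11 relative to the median gene (adjusted p 8.95e-05). Without MI replicate 1 it was 0.57 and without MI replicate 3 it was 0.81, with unadjusted limma p of 0.119 and 0.106, and without any 1 sham-operated mouse that p was 0.0583 to 0.0721, so the unadjusted call held only with all 7 mice or without MI replicate 2. Exons of Hif1a share 478 bases in all with Gm15283, on the opposite strand, and Gm49321, on the same strand, which reached at most 0.191 and 1.05 FPKM.

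Epas1 encodes HIF-2α, which is prominent in endothelial cells. Epas1 (ENSMUSG00000024140) lies on chromosome 17 from 86753700 to 86833410 on the plus strand. Its level was 77.4, 81.0, 81.4 and 85.3 FPKM in the sham-operated mice and 55.9, 87.3 and 60.8 in the MI mice, so that MI replicates 1 and 3 were below and MI replicate 2 above the sham range. The means were 81.3 ± 3.24 (SD, n = 4) and 68.0 ± 16.9 (SD, n = 3). The log2 fold change was -0.28 (standard error 0.16), or -0.49 relative to the median gene, with an adjusted limma p of 0.207. It was -0.47, or -0.80 relative to the median gene (adjusted p 0.000569) without MI replicate 2 and -0.16 without MI replicate 1. Epas1 was the most abundant of the alpha subunits in all 7 hearts.

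In MI replicates 1 and 3 the balance between both subunits differed from that of every sham-operated mouse, while their sum lay just under the sham range. In each sham-operated heart there was 8.08 to 10.3 times as much Epas1 as Hif1a by FPKM, and in MI replicates 1, 2 and 3 the ratio was 1.84, 10.3 and 2.82. The sum of Hif1a, Epas1 and Hif3a was 87.2 to 94.1 FPKM in the sham-operated mice and 86.6, 96.3 and 82.6 in the MI mice. Hif1a made up 8.83% to 11% of that sum in the sham-operated mice and 35%, 8.80% and 26.0% in MI replicates 1, 2 and 3. On the log2(FPKM + 1) scale the difference Hif1a minus Epas1 was 1.22 higher in the MI mice. The groups overlapped, and the exact two-sided permutation p over the 35 splits of the mice was 0.286 (0.343 after adjustment over 4 such pairs), where 3 mice against 4 allow no p under 0.0571. FPKM depends on the gene length used: the values imply 6951 bases for Hif1a and 5848 for Epas1, against exon lengths of 5896 and 5590 in GENCODE M21. The length cannot alter a ratio between mice.

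**Figure D3:**
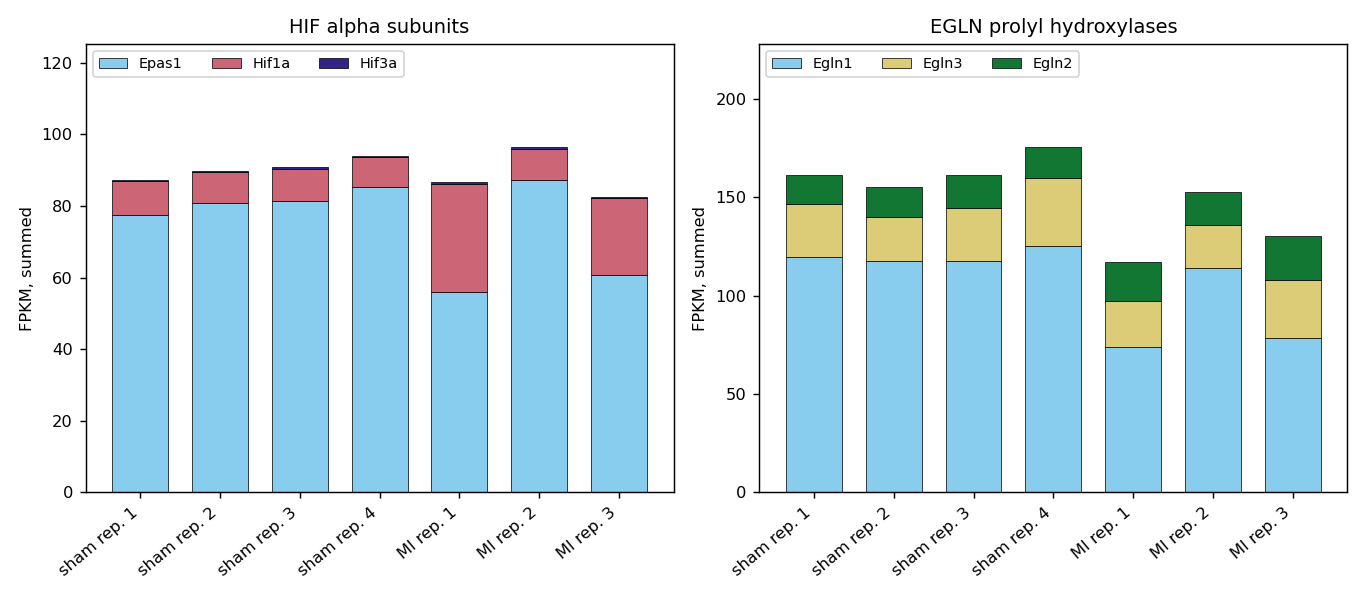
Summed FPKM (y axis, from 0) of the HIF alpha subunits, left, and of the EGLN prolyl hydroxylases, right, with 1 bar per mouse. The alpha subunit sums stay between 82.6 and 96.3 FPKM while the Hif1a part is larger in MI replicates 1 and 3; the EGLN sums of those 2 mice, 117 and 130.3 FPKM, are the lowest of the 7.

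Hif3a encodes HIF-3α, of which some forms hold back the other subunits. Hif3a (ENSMUSG00000004328) lies on chromosome 7 from 17031507 to 17062427 on the minus strand. It was the scarcest of the subunits, at 0.181, 0.362, 0.422 and 0.421 FPKM in the sham-operated mice and 0.380, 0.551 and 0.344 in the MI mice, from 30 to 73 fragments in a sham-operated heart and 60 to 92 in an MI heart. Only MI replicate 2 exceeded the sham range, in contrast to Hif1a, and the groups overlapped (exact two-sided permutation p = 0.514, n = 3 and 4). The difference Hif3a minus Hif1a was -0.85 in MI relative to sham-operated mice (exact two-sided p = 0.286, adjusted 0.343).

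Arnt encodes HIF-1β, the partner of every alpha subunit. Arnt (ENSMUSG00000015522) lies on chromosome 3 from 95434388 to 95497240 on the plus strand. Its level was 1.99, 2.54, 2.28 and 2.39 FPKM in the sham-operated mice and 3.15, 2.47 and 3.00 in the MI mice. MI replicates 1 and 3 were above the sham range and MI replicate 2 inside it. The log2 fold change of 0.23 (standard error 0.11) was 0.02 relative to the median gene (adjusted limma p 0.141), so Arnt lay at the median of all genes, and with quantile normalization both were below 0 (Arnt -0.038, the median gene -0.031). Without MI replicate 2 it was 0.31, or -0.019 relative to the median gene (adjusted p 0.0122). The alpha subunits together were 35.3 to 43.8 times Arnt by FPKM in the sham-operated mice and 27.5, 39.0 and 27.5 times in MI replicates 1, 2 and 3. The values imply a length of 13171 bases for Arnt against 8007 in GENCODE M21, which touches these ratios between genes but not their order among mice. The difference Arnt minus Hif1a was -0.71 in MI relative to sham-operated mice (exact two-sided permutation p = 0.229, adjusted 0.343).

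**Figure D4:**
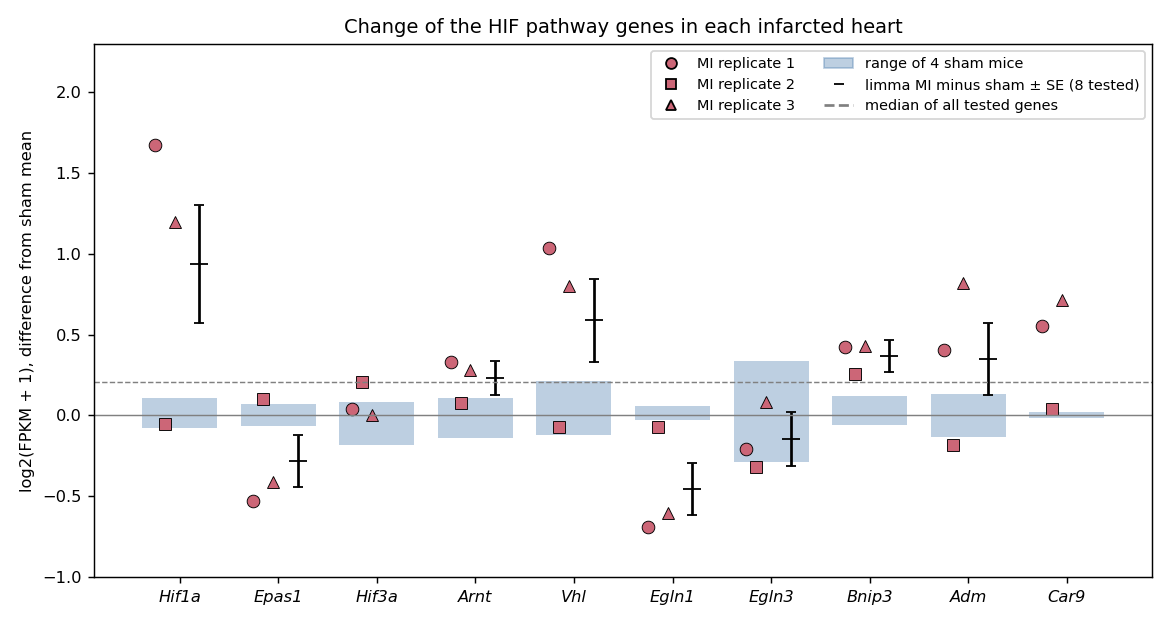
Difference of log2(FPKM + 1) from the sham mean (y axis) for each MI mouse (red symbols) and the range of the 4 sham mice (blue boxes) in the 10 genes; black bars give the limma log2 fold change with its standard error for the 8 tested genes. The dashed line is the median of all tested genes at 0.21; for Bnip3 all 3 MI mice and for Egln1 none lie above their sham box.

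Of the oxygen sensors, Egln1 was lower in every MI mouse than in every sham-operated mouse. Egln1 encodes PHD2, the main HIF prolyl hydroxylase. Egln1 (ENSMUSG00000031987) lies on chromosome 8 from 124908587 to 124949324 on the minus strand. It was the most abundant of the 10 genes by FPKM in all 7 hearts, at 119.7, 118, 118 and 125 in the sham-operated mice and 74.0, 114 and 78.7 in the MI mice. MI replicates 1 and 3 were well below the sham-operated mice and MI replicate 2 just below. The means were 120.0 ± 3.61 (SD, n = 4) and 89.0 ± 22.0 (SD, n = 3). Its log2 fold change was -0.45 (standard error 0.16), or -0.66 relative to the median gene (limma p 0.0249, adjusted 0.109), and the exact two-sided permutation p was 0.0571, the smallest possible (0.19 after adjustment over the 10 members). Without MI replicate 2 the log2 fold change was -0.65, or -0.97 relative to the median gene (adjusted p 8.44e-05). On leaving out any other mouse the unadjusted limma p was 0.0508 to 0.087. The direction was kept in all 18 alternative settings, but with TPM and with a replicate block the unadjusted limma p was 0.0641 and 0.0953, so the call was lost there.

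Egln3 encodes PHD3, a hydroxylase that is itself a known HIF target. Egln3 (ENSMUSG00000035105) lies on chromosome 12 from 54178981 to 54203860 on the minus strand. Its values were 26.9, 22.2, 26.8 and 34.8 FPKM in the sham-operated mice and 23.6, 21.8 and 29.1 in the MI mice. The groups overlapped, and sham replicate 4 was the highest of all 7 mice. Egln3 had a log2 fold change of -0.15 (standard error 0.17), or -0.36 relative to the median gene, with an adjusted limma p of 0.507, and -0.061, or -0.39 relative to the median gene (adjusted p 0.763) without MI replicate 2. After rescaling to TPM it was 0.048, where the median gene was at 0.42, and relative to that gene Egln3 was at -0.37. Its log2 fold change was -0.034 without sham replicate 4, -0.24 without sham replicate 2 and -0.26 without MI replicate 3. The means were 27.7 ± 5.24 (SD, n = 4) and 24.8 ± 3.82 (SD, n = 3), closer together than the spread within either group. The difference Egln3 minus Egln1 was 0.31 higher in the MI mice, with overlapping groups (exact two-sided permutation p = 0.343, adjusted 0.343).

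Egln2, the prolyl hydroxylase gene outside the 10, was higher than in any sham-operated mouse in MI replicates 1 and 3. It stood at 14.9, 15.2, 17.0 and 15.3 FPKM in the sham-operated mice and 19.7, 16.9 and 22.5 in the MI mice (log2 fold change 0.31, standard error 0.12, or 0.10 relative to the median gene, with an adjusted limma p of 0.112; without MI replicate 2, 0.41, or 0.088 relative to the median gene, with an adjusted p of 0.00286). Egln1 took 71.4% to 75.9% of the summed level of Egln1, Egln2 and Egln3 in the sham-operated mice and 63.1%, 74.7% and 60.4% in MI replicates 1, 2 and 3. Hif1an, the asparaginyl hydroxylase that blocks HIF from its coactivators, was at 12.9, 13, 13.4 and 13.2 FPKM and 10.3, 12.2 and 10.4, every MI mouse being below every sham-operated mouse (log2 fold change -0.24, standard error 0.093, or -0.45 relative to the median gene, with an adjusted limma p of 0.113; without MI replicate 2, -0.32, or -0.64 relative to the median gene, with an adjusted p of 0.00129).

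Vhl encodes the recognition subunit of the ubiquitin ligase that removes hydroxylated HIF. Vhl (ENSMUSG00000033933) lies on chromosome 6 from 113623959 to 113631633 on the plus strand. It was at 3.38, 2.81, 2.47 and 2.50 FPKM in the sham-operated mice and 6.74, 2.59 and 5.59 in the MI mice, from 192 to 291 fragments in a sham-operated heart and 225 to 564 in an MI heart. MI replicates 1 and 3 were above the sham range and MI replicate 2 inside it, as for Hif1a. The log2 fold change was 0.59 (standard error 0.26), or 0.38 relative to the median gene (adjusted limma p 0.13), and 0.92, or 0.59 relative to the median gene (adjusted p 0.000392) without MI replicate 2. Without MI replicate 1 it was 0.37. Cul2, the scaffold of the same ligase, was on the other side, at 5.65, 5.51, 6.30 and 5.97 FPKM and 4.94, 5.47 and 4.86 (log2 fold change -0.17, standard error 0.089, or -0.38 relative to the median gene, with an adjusted limma p of 0.174; without MI replicate 2, -0.22, or -0.54 relative to the median gene, with an adjusted p of 0.0211).

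Of the HIF targets, Bnip3 was higher in every MI mouse, MI replicate 2 included. Bnip3 encodes a protein of the outer mitochondrial membrane that directs mitochondria to autophagy. Bnip3 (ENSMUSG00000078566) lies on chromosome 7 from 138890836 to 138909519 on the minus strand. Its level was 33.4, 34.5, 37.7 and 33.3 FPKM in the sham-operated mice and 46.8, 41.6 and 47.0 in the MI mice. The MI mice lay close together, and the lowest of them was above the highest sham-operated mouse. The means were 34.7 ± 2.08 (SD, n = 4) and 45.2 ± 3.05 (SD, n = 3). Its log2 fold change was 0.37 (standard error 0.098), or 0.16 relative to the median gene, with the smallest limma p of the members (0.00643, adjusted 0.108) and an exact two-sided permutation p of 0.0571, the smallest possible (0.19 after adjustment over the 10 members). Without MI replicate 2 it was 0.43, or 0.10 relative to the median gene (adjusted p 0.00117). The unadjusted limma p stayed under 0.05 on leaving out each of the 7 mice in turn, with a highest value of 0.0261. It was 0.386 on the median log-ratio scale, 0.161 with quantile normalization and 0.0728 with a replicate block, so the call was lost in these 3 settings. After scaling on the median log-ratio, the log2 fold change was 0.10 (adjusted p 0.502), and with quantile normalization 0.17 (adjusted p 0.27). Bnip3 shares 504 exon bases with Gm45507 on the opposite strand, which was at 0 to 0.326 FPKM. Its paralog Bnip3l stood at 6.87, 6.78, 6.52 and 7.34 FPKM and 14.9, 7.95 and 14.5 (log2 fold change 0.72, standard error 0.20, or 0.51 relative to the median gene, with an adjusted limma p of 0.108; without MI replicate 2, 0.99, or 0.67 relative to the median gene, with an adjusted p of 1.97e-05), where MI replicate 2 was only slightly above the sham-operated mice.

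Adm encodes adrenomedullin, a secreted peptide that widens vessels. Adm (ENSMUSG00000030790) lies on chromosome 7 from 110627661 to 110629820 on the plus strand. It stood at 4.97, 3.97, 4.17 and 4.73 FPKM in the sham-operated mice and 6.21, 3.80 and 8.61 in the MI mice, from 152 to 197 fragments in a sham-operated heart and 152 to 359 in an MI heart. MI replicates 1 and 3 were above the sham range and MI replicate 2 below it. Adm had a log2 fold change of 0.35 (standard error 0.22), or 0.14 relative to the median gene (adjusted limma p 0.247), and 0.61, or 0.29 relative to the median gene (adjusted p 0.00461) without MI replicate 2. Without MI replicate 3 it was 0.11, or -0.057 relative to the median gene. The receptor of adrenomedullin is made by Calcrl with Ramp2 or Ramp3. Calcrl was at 3.76, 3.68, 3.70 and 3.30 FPKM in the sham-operated mice and 8.08, 4.01 and 5.92 in the MI mice, and Ramp2 at 6.16, 5.74, 7.04 and 5.89 and 8.77, 9.44 and 11.3. For both, all MI mice lay above all sham-operated mice, with log2 fold changes of 0.56 (standard error 0.19) and 0.59 (standard error 0.12), or 0.35 and 0.38 relative to the median gene, and an adjusted limma p of 0.108 each. Leaving out MI replicate 2, Calcrl had a log2 fold change of 0.78, or 0.46 relative to the median gene, with an adjusted p of 0.000691, and Ramp2 one of 0.61, or 0.28 relative to the median gene, with an adjusted p of 0.00243. Ramp3 overlapped between the groups, at 2.11, 2.75, 2.07 and 2.28 FPKM and 2.15, 2.27 and 3.08 (log2 fold change 0.08, standard error 0.13, or -0.13 relative to the median gene, with an adjusted limma p of 0.63; without MI replicate 2, 0.12, or -0.20 relative to the median gene, with an adjusted p of 0.409).

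Car9 encodes carbonic anhydrase 9, a membrane enzyme that controls pH and is almost absent from most tissues with normal oxygen. Car9 (ENSMUSG00000028463) lies on chromosome 4 from 43506966 to 43513729 on the plus strand. It rested on 0, 2, 0 and 1 fragments in sham replicates 1 to 4 and on 39, 3 and 58 in MI replicates 1 to 3. In FPKM these were 0, 0.0247, 0 and 0.0134 against 0.480, 0.0355 and 0.658. A count of 0 allows up to 3 fragments, so MI replicate 2 could not be told from the sham-operated mice at this depth. Per fragment sequenced, the ratio of the 3 MI mice to the 4 sham-operated mice was 42.9 (95% exact interval 14.3 to 212), and that of MI replicate 2 alone 3.87 (0.518 to 28.9). These intervals cover counting error only. The exact two-sided permutation p was 0.0571 (0.19 after adjustment over the 10 members), which rests on the order of MI replicate 2, with 3 fragments, and sham replicate 2, with 2. Without a filter on low values the log2 fold change was 0.43 (limma adjusted p 0.188 over 30504 genes). Car9 shares 214 exon bases with Gm12454 on the opposite strand, whose FPKM was 0.181 to 0.284 in the sham-operated mice and 0.521, 0.188 and 0.481 in the MI mice. Whether counting used the strand is not given in the sources used here, so the reads of both cannot be told apart. Car12, another enzyme of this class at the cell surface, had at most 1 fragment in a sham-operated mouse and 12, 0 and 2 in the MI mice. Car4, which capillaries carry, overlapped between the groups at 5.67, 5.59, 6.06 and 4.72 FPKM and 4.11, 7.03 and 6.53 (log2 fold change 0.059, standard error 0.17, or -0.15 relative to the median gene, with an adjusted limma p of 0.795; without MI replicate 2, -0.065, or -0.39 relative to the median gene, with an adjusted p of 0.725).

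The pathway around the 10 genes was described with 8 lists of 112 genes, the members included, of which 87 were tested. Adjusted over all 11431 genes, 1 of the 87 passed (limma, Benjamini-Hochberg), Tfrc, the transferrin receptor, which fell by 1.69 on the log2 scale (standard error 0.15, adjusted p 0.0323), from 17.2, 13.2, 12.4 and 16.9 FPKM in the sham-operated mice to 3.47, 3.74 and 4.56 in the MI mice. Its log2 fold change was -1.90 relative to the median gene. Leaving out MI replicate 2 it was -1.66, or -1.99 relative to the median gene, with an adjusted p of 0.000109. No gene of the lists passed in the lower direction after rescaling to TPM, with a filter on the mean level, with a replicate block, or on leaving out any 1 mouse other than MI replicate 2. At an unadjusted p under 0.05, 28 were higher and 11 lower, against 29.5% and 9.85% of all genes. After scaling on the median log-ratio, the 87 split into 18 higher and 20 lower, and all genes into 2171 higher and 2238 lower in place of 3370 and 1126, so the balance of directions depends on the scaling. The median log2 fold change over the lists was 0.23, against 0.21 over all genes tested. When MI replicate 2 was left out, 50 of the 87 passed an adjusted p of 0.05 as higher and 15 as lower, where 57.0% and 14.7% of all genes were.

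By role, 2 of 12 genes of oxygen sensing and HIF turnover were higher and 2 lower at an unadjusted p under 0.05, and their median was -0.21 relative to the median gene. Of 9 coactivators and modulators 4 were higher and 1 lower (median 0.039 relative to the median gene). Among them Cited2, which competes with HIF for its coactivators and is itself a HIF target, was at 5.34, 6.11, 5.72 and 5.27 FPKM and 7.41, 8.81 and 7.66, with MI replicate 2 the highest of all (log2 fold change 0.44, standard error 0.098, or 0.23 relative to the median gene, with an adjusted limma p of 0.108; without MI replicate 2, 0.37, or 0.044 relative to the median gene, with an adjusted p of 0.00266). Ep300, the coactivator it competes for, was at 3.14, 3.24, 3.57 and 3.58 FPKM and 3.95, 3.70 and 3.91 (log2 fold change 0.15, standard error 0.085, or -0.062 relative to the median gene, with an adjusted limma p of 0.208; without MI replicate 2, 0.17, or -0.16 relative to the median gene, with an adjusted p of 0.0537). Of 8 mitophagy genes 4 were higher and 2 lower, of 6 genes of the adrenomedullin system 2 and 0, and of 5 carbonic anhydrases 1 and 2, where 29.5% of all genes were higher and 9.85% lower. Leaving out MI replicate 2, at an adjusted p under 0.05, 5 of the 12 sensing genes were higher and 3 lower, 6 and 1 of the 9 coactivators, 4 and 2 of the 8 mitophagy genes, 3 and 1 of the 6 adrenomedullin genes and 1 and 2 of the 5 carbonic anhydrases, against 57.0% and 14.7% of all genes. Arnt2, the partner gene used mostly in neurons, did not pass the limit on low values, with at most 0.128 FPKM in a mouse.

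Of 15 glycolytic targets of HIF tested, 2 were higher and 1 lower at an unadjusted p under 0.05, against 29.5% and 9.85% of all genes, and their median was -0.0064 relative to the median gene. When MI replicate 2 was left out, 9 passed an adjusted p of 0.05 as higher and 1 as lower, against 57.0% and 14.7% of all genes, and the median was 0.16 relative to the median gene. Slc2a1, the glucose transporter found in most cells, was at 2.56, 2.63, 3.23 and 2.48 FPKM in the sham-operated mice and 8.41, 3.14 and 6.83 in the MI mice (log2 fold change 0.86, standard error 0.27, or 0.65 relative to the median gene, with an adjusted limma p of 0.108; without MI replicate 2, 1.21, or 0.88 relative to the median gene, with an adjusted p of 8.47e-05). Ldha, which makes lactate dehydrogenase A, was at 68.0, 67.7, 68.9 and 66.2 and 79.6, 62.1 and 86.0 FPKM (log2 fold change 0.15, standard error 0.13, or -0.06 relative to the median gene, with an adjusted limma p of 0.379; without MI replicate 2, 0.29, or -0.04 relative to the median gene, with an adjusted p of 0.00329). Pdk1, a kinase that holds pyruvate back from mitochondria, was at 15.3, 15.7, 17.2 and 14.7 and 14.0, 15.4 and 15.4 FPKM, with overlapping groups (log2 fold change -0.068, standard error 0.093, or -0.28 relative to the median gene, with an adjusted limma p of 0.572; without MI replicate 2, -0.09, or -0.42 relative to the median gene, with an adjusted p of 0.327).

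Targets outside glycolysis had the largest median of the 8 lists, 0.15 relative to the median gene, with 12 of 29 higher and 3 lower at an unadjusted p under 0.05, against 29.5% and 9.85% of all genes. With MI replicate 2 left out, 20 passed an adjusted p of 0.05 as higher and 4 as lower, against 57.0% and 14.7%, and the median was 0.25 relative to the median gene. Hmox1, heme oxygenase 1, was at 4.45, 3.92, 4.85 and 4.61 FPKM in the sham-operated mice and 39.5, 4.94 and 27.2 in the MI mice (log2 fold change 1.8, standard error 0.59, or 1.59 relative to the median gene, with an adjusted limma p of 0.108; without MI replicate 2, 2.63, or 2.31 relative to the median gene, with an adjusted p of 1.25e-05). P4ha1, a collagen prolyl hydroxylase, was at 8.07, 9.02, 9.61 and 10.8 and 24.0, 10.3 and 21.8 FPKM (log2 fold change 0.85, standard error 0.27, or 0.64 relative to the median gene, with an adjusted limma p of 0.108; without MI replicate 2, 1.21, or 0.89 relative to the median gene, with an adjusted p of 7.93e-05). Ndrg1, a stress-induced gene, was at 4.10, 4.43, 4.56 and 4.78 and 10.1, 6.05 and 9.30 FPKM, with MI replicate 2 also above the sham range (log2 fold change 0.77, standard error 0.16, or 0.56 relative to the median gene, with an adjusted limma p of 0.108; without MI replicate 2, 0.97, or 0.64 relative to the median gene, with an adjusted p of 3.61e-05). Bhlhe40, a transcriptional repressor, was above the sham range in MI replicates 1 and 3 and below it in MI replicate 2, at 12.2, 12.3, 12.1 and 13.2 and 20.8, 8.35 and 16.5 FPKM (log2 fold change 0.18, standard error 0.27, or -0.025 relative to the median gene, with an adjusted limma p of 0.591; without MI replicate 2, 0.54, or 0.21 relative to the median gene, with an adjusted p of 0.00181). Ddit4, an inhibitor of mTORC1, overlapped between the groups at 52.3, 65.0, 62.2 and 54.3 and 49.2, 57.6 and 76.6 FPKM (log2 fold change 0.046, standard error 0.17, or -0.16 relative to the median gene, with an adjusted limma p of 0.839; without MI replicate 2, 0.076, or -0.25 relative to the median gene, with an adjusted p of 0.715). Vegfa, the vessel growth factor and a textbook HIF target, was lower in every MI mouse, at 31.6, 32.1, 31.5 and 33.3 FPKM in the sham-operated mice and 26.5, 25.3 and 27.6 in the MI mice (log2 fold change -0.27, standard error 0.085, or -0.48 relative to the median gene, with an adjusted limma p of 0.108; without MI replicate 2, -0.24, or -0.56 relative to the median gene, with an adjusted p of 0.00615).

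**Figure D5:**
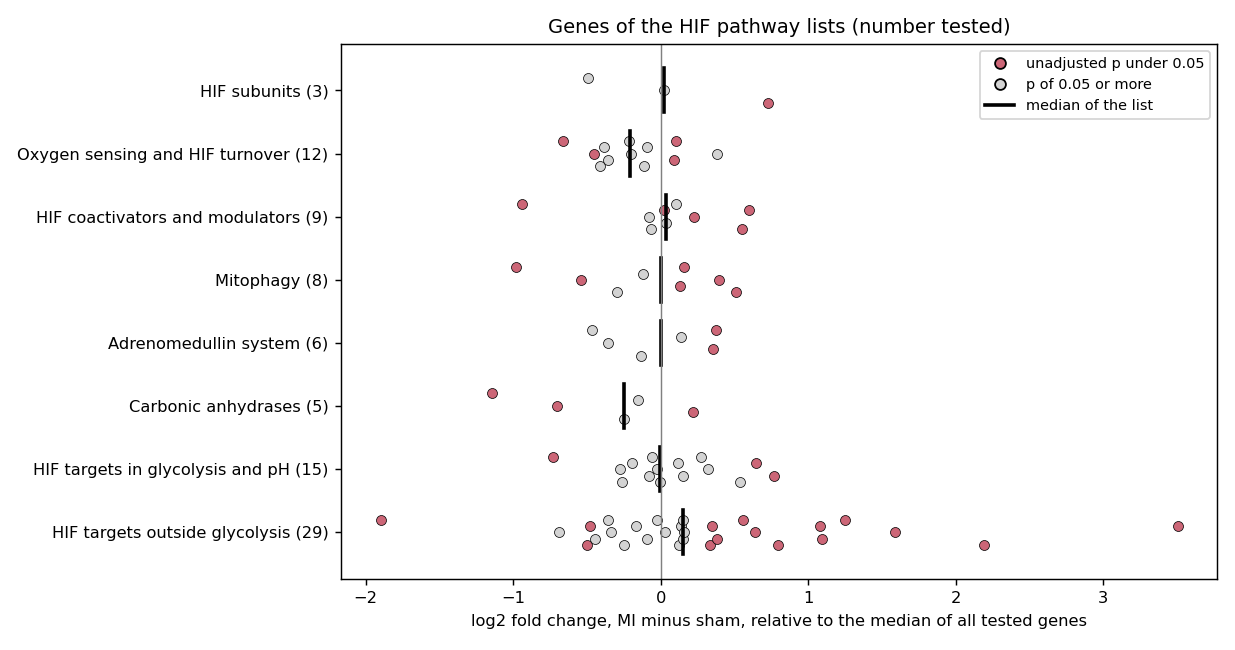
Log2 fold change, MI minus sham, relative to the median of all tested genes (x axis) of each tested gene in 8 lists of the HIF pathway (rows, with the number tested); red points have an unadjusted limma p under 0.05 and black ticks mark list medians. List medians lie between -0.25 and 0.15, and points fall on both sides of 0 in every list.

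The members differed in how many other genes followed the same course over the 7 mice. Counting genes with a Pearson's r over 0.95 on log2(FPKM + 1), there were 3404 for Hif1a, 2573 for Vhl, 657 for Egln1, 321 for Epas1, 138 for Bnip3, 94 each for Arnt and Adm, and 1 for Egln3. The points are mice that share 2 groups, and no p is given. For Hif1a, Vhl, Epas1 and Egln1 the course, and so r, was set mostly by MI replicates 1 and 3, with MI replicate 2 near the sham-operated mice. The 3 genes most like Hif1a were Tmem123, Sgpp1 and Ifnar2 (r of 0.999 each). For Egln1 they were Gfm1, Vwa8 and Tmod4 (0.998, 0.998 and 0.997), and for Epas1 they were Tmem182, Mylk3 and mt-Nd5 (0.995 each). Frat2, Ly6c1 and Gm9770 were most like Bnip3 (0.994, 0.993 and 0.990), and Sync, with 0.956, was most like Egln3.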

How the data were processed

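Myocardial RNA from 3 MI and 4 sham-operated mice was sequenced, and grouping followed the treatment given in the labels. The authors deposited 1 table of FPKM per gene and mouse. The submitters' processing notes name CASAVA 1.8, HISAT2, SAMtools 1.3.1, edgeR and the mm10 build, with no role. The annotation, the counting program and the use of strand are not given in the sources used here. The members and the gene lists were chosen with earlier results of these data known.

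Positions came from GENCODE M21, which held 52073 of the 56980 identifiers, and promoter windows from RefSeq. The steps of the FPKM values gave library sizes of 19977713 to 23610870 fragments. Whole fragments were recovered from them (tolerance 0.05) for 30503 of the 30504 genes above 0, and summed to 19875453 to 23511030 per library. These fragments served for depth, mitochondrial shares, counting intervals and the voom weights only.

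Genes that reached 1 FPKM in 3 or more mice were fitted on log2(FPKM + 1) with limma 3.58.1 (R 4.3.3) and Benjamini-Hochberg adjustment over 11431 genes. A fold change on this scale understates the change of low genes. Single values and pairs of members were compared by exact two-sided permutation over 35 splits. Scripts ran in Python 3.11.15 (SciPy 1.17.1, pandas 2.3.3, matplotlib 3.10.9, NumPy 2.4.6), and the fits were tested on simulated data. Other pseudocounts, filters, scalings, weights, a replicate block and the omission of each mouse were tried. Named genes were the 10 members and 22 pathway genes listed by name. Some cell type markers, genes that overlap a member and genes most like some of the tested members were named as well. Aldoa was left out because 2 identifiers share its symbol, and Ero1a was matched through a RefSeq synonym.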

Additional observations from a re-analysis of the deposited data

How the results depend on the processing

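In limma, 2 genes passed an adjusted p under 0.05 as higher and 1 as lower in the MI mice. With the median log-ratio and with quantile normalization these were 10 and 5, without mitochondrial genes 8 and 3, and with a filter on the mean 0 and 0 (4740 genes at an unadjusted p under 0.05). TPM gave 0 lower (4702 at an unadjusted p), no filter 20 higher, a pseudocount of 0.1 5 higher and voom weights 1 higher. Sample weights, whose estimation did not converge and which put a weight of 437 on MI replicate 3 against at most 1.32 on any other mouse, called 7636 and 2316 genes, 57 and 19 list genes and 5 and 2 members, and at an unadjusted p 57 and 20 list genes and 5 and 2 members. At an unadjusted p, the 2 members higher and 1 lower became 4 and 0 with TPM, where 4142 and 560 of 11431 genes were called, and 1 was higher with the median log-ratio (2171 and 2238 genes) or quantile normalization (1904 and 2400 genes), against 3370 and 1126 genes as reported. The 28 higher and 11 lower list genes became 18 and 20 with the median log-ratio and 18 and 21 with quantile normalization, and 6 were lower with TPM. The list gene called lower, Tfrc, was lost with TPM, the filter on the mean, the replicate block and the omission of any mouse but MI replicate 2, 0 being called. The log2 fold change of Egln3 was above 0 with TPM (0.048) and sample weights (0.12), but relative to the median gene it was -0.37 and -0.18, against -0.36 as reported. That of Arnt was -0.038 with quantile normalization, where the median gene was -0.031.

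Leaving out each mouse gave 0 to 6512 genes higher and 0 to 1683 lower at an adjusted p, 0 to 5 and 0 to 2 members, and 0 to 50 and 0 to 15 list genes. At an unadjusted p it gave 1 to 5 and 0 to 2 members and 12 to 53 and 6 to 15 list genes, where 952 to 6722 of all 11431 genes were higher and 535 to 1770 lower. The largest adjusted counts came without MI replicate 2. Of the unadjusted calls on members, Bnip3 held without each mouse, and Hif1a and Egln1 only without MI replicate 2. The within-mouse differences ranged from 0.73 to 1.91 for Hif1a minus Epas1, -1.41 to -0.47 for Hif3a minus Hif1a, 0.12 to 0.59 for Egln3 minus Egln1 and -1.13 to -0.39 for Arnt minus Hif1a.

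Deviations from the group means gave no sign that replicate numbers pair the mice (correlation 0.074, -0.016 and -0.080). Because MI replicate 2 stood apart from the other MI mice and dominates these deviations, they cannot exclude pairing. With a replicate block, limma called 0 genes higher and 0 lower at an adjusted p (1770 higher and 562 lower at an unadjusted p), 0 list genes lower, and at an unadjusted p 1 member higher (Hif1a), 0 lower, and 19 list genes higher and 5 lower. Bnip3 and Egln1 lost their unadjusted call (p 0.0728 and 0.0953). With 3 MI mice, 1 of which differed from the others, the spread in that group limits every test, and the depth limits Car9 and Hif3a.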
